A study of Gallus gallus with 2 samples.

Results

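The interferon genes examined here are 42 genes that sense viral nucleic acid, carry the interferon signal or are induced by it, and they were measured in the ileum of chickens fed paddy rice or corn. They were chosen by name from the array annotation, with earlier results of these data known. Of the 42 genes, 39 had at least 1 probe set assigned to that gene alone, out of 13050 named genes on the array. STAT2, NLRC5 and USP18 had no probe set in the annotation used and were not analysed here. The tested diet held 650 g/kg of paddy rice, the control diet held 650 g/kg of corn, and each was given for 2 wk to 9 male White Leghorn layer chicks that were sampled at 3 wk of age. Ileal RNA of 3 birds per diet was pooled for 1 array. The birds pooled were those whose ileal level of MUC2, a mucin gene, was near the average of their diet, and crude protein and metabolizable energy differed between the diets. Before these diets all chicks ate 1 semi-purified diet.

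Interferons are secreted by cells that detect a virus or other foreign nucleic acid. They bind receptors on neighbouring cells, and Janus kinases and STAT proteins then switch on a large set of genes whose products block viral replication. Sensors of RNA such as TLR3 in endosomes and IFIH1 (MDA5) in the cytosol start the response, and interferon regulatory factors such as IRF7 transcribe the interferon genes. Chickens lack RIG-I, the other main cytosolic RNA sensor of mammals, and also lack IRF3. Many sensors and transcription factors of the pathway are themselves induced by interferon, so the list holds genes at every step of a loop.

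The 2 arrays carried 1 signal per probe set, a group of short DNA probes for 1 transcript, on a linear scale in arbitrary units. The signal averaged 500.1 on both arrays after the highest and lowest 2% were trimmed. RNA quality was alike, as the 3' to 5' signal ratio of ACTB was 1.52 on paddy rice and 1.51 on corn. Each gene is given by its brightest probe set, and each ratio is paddy rice over corn. A gene is called bright where that probe set had a mean signal of 522 or more, the 75th percentile over chicken probe sets, and of medium or high signal where it had 111 or more, their median. With 1 array per diet there was no replicate error and no test, so every ratio compares a pair of pools. As an internal measure of spread, log2 ratios of different probe sets of the same gene had an SD of 0.16 over bright probe sets (1661 genes with several) and of 0.27 over those of medium or high signal (4020 genes). These SDs cover differences between probe sets and not between birds. In a pooled tissue, fewer cells of a type and less RNA per cell cannot be told apart.

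Most of the interferon genes examined were higher on paddy rice. By role, the median ratio was highest in the sensors, the antiviral effectors and the modifying enzymes. Only 3 of the 5 listed transcription factors and regulators were measured, and SOCS1, grouped with the receptors and kinases, had a ratio of 1.28. The list was chosen with earlier results of these data known, so the counts below describe this list and not interferon-induced genes in general. A separate list of 17 measured interferon-induced genes had a median log2 ratio of 0.03. Of the 39 measured genes, 34 had a ratio above 1, while 49.5% of all named genes did. The median log2 ratio of the 39 was 0.32, a ratio of 1.25, against a median of -0.0029 over all named genes. A ratio above 1.5 was found for 8 of the 39 (8.28% of all named genes) and a ratio below 0.67 for 0 of the 39 (8.64% of all named genes). Most of these background calls came from dim probe sets. Among the 5784 bright named genes only 0.622% were above 1.5 and 0.328% below 0.67. Of the 30 bright interferon genes 5 were above 1.5, namely DDX60, MX1, IFIT5, OASL and EPSTI1. These 5 genes made up 13.9% of the 36 bright named genes above 1.5. Of the 36 interferon genes of medium or high signal 7 were above 1.5, with RSAD2 and SAMD9L added, and 0 were below 0.67, against 1.88% and 1.72% of 9254 such named genes.

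**Figure D1:**
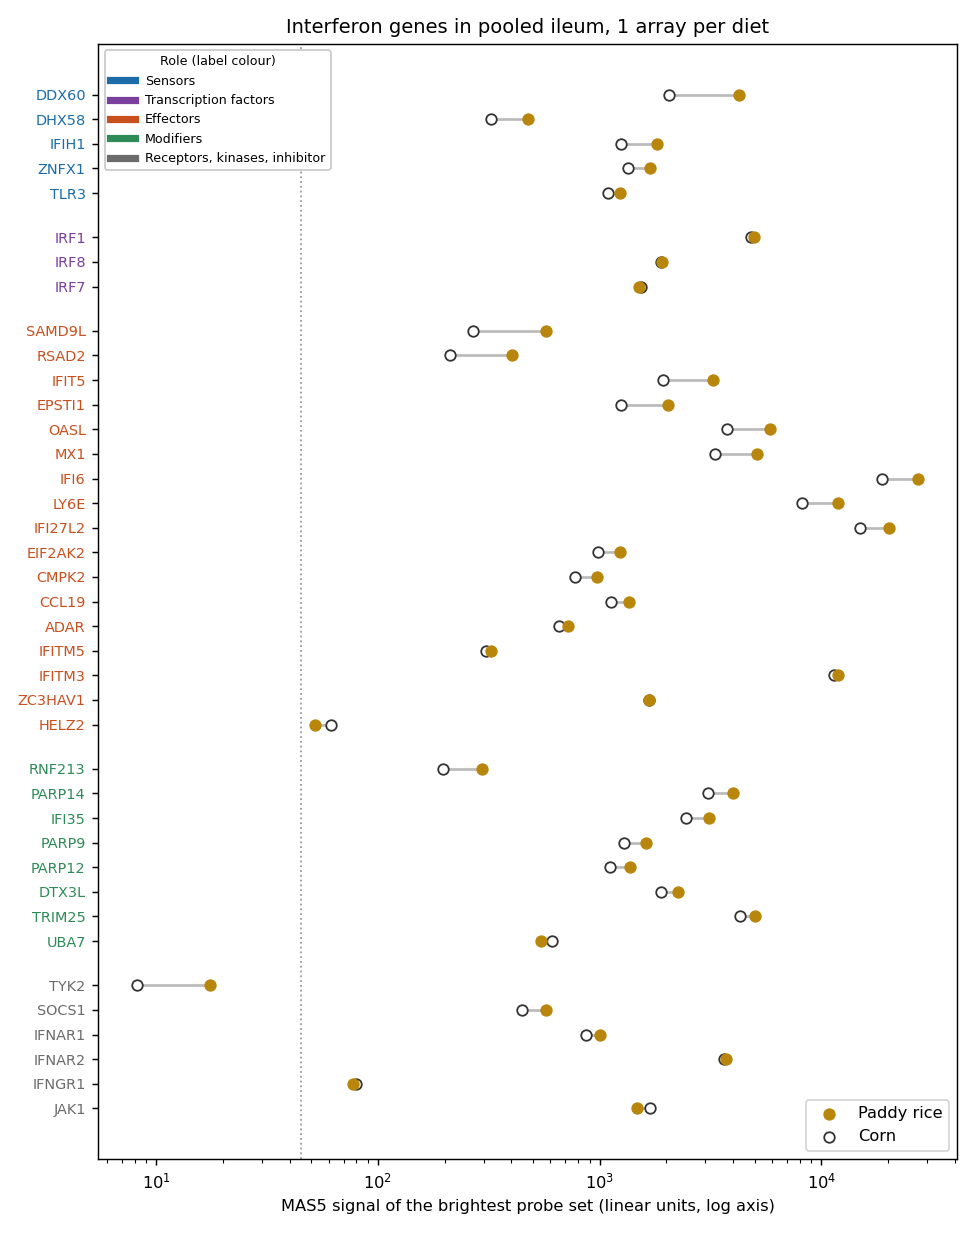
Signals of the 39 measured interferon genes on the paddy rice array (filled) and the corn array (open), 1 array per diet, with MAS5 signal of the brightest probe set on a log axis and genes sorted by ratio within each role. The dotted line marks the level of probe sets not marked as chicken (45.1 on paddy rice), and only TYK2 lies under it on both arrays.

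The smaller differences ran in the same direction. With a threshold of 1.2, chosen after the values were seen, 23 of the 39 interferon genes were above it, against 18.6% of all named genes. Of the 30 bright ones 17 were above 1.2, against 6.71% of bright named genes, and 27 were above 1, against 49.9%. There were 72 probe sets for the 39 genes, and 46 of the 53 of medium or high signal had a ratio above 1. Some of the 53 belong to the same gene, and the share over all chicken probe sets of such signal was not counted.

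The 5 sensors among the interferon genes examined were all higher on paddy rice, as were 49.5% of all named genes. Their ratios were between 1.13 and 2.07, with a median log2 ratio of 0.54. A separate list of 17 measured sensors and adaptors had a median log2 ratio of -0.07, with 7 above 1 and 10 below. Most genes of that list are adaptors, kinases and other signalling genes. Its sensors TLR7, TLR21, TLR4 and CGAS were at ratios of 0.875, 0.844, 0.913 and 1.16. Of its adaptors STING1 was at 1.58, MAVS at 1.34, TICAM1 at 1.04 and MYD88 at 0.921. DDX60, a helicase that assists cytosolic RNA sensing in mammals, had a signal of 4252 on paddy rice and 2058 on corn, a ratio of 2.07. IFIH1, the cytosolic receptor for long viral RNA, had a signal of 1814 on paddy rice and 1244 on corn, a ratio of 1.46. DHX58 (LGP2), which modulates IFIH1, had a signal of 474 on paddy rice and 324 on corn, a ratio of 1.46. These genes belong to the cytosolic arm. Their log2 ratios of 0.54 or more, and the 0.33 of ZNFX1, exceeded both SDs between probe sets of a gene. Those SDs hold no differences between birds. ZNFX1, a helicase that binds viral RNA at mitochondria, had a signal of 1679 on paddy rice and 1336 on corn, a ratio of 1.26. TLR3, the endosomal receptor, had a signal of 1230 on paddy rice and 1091 on corn, a ratio of 1.13. Its dimmer probe sets pointed the other way, with ratios of 0.860 and 0.812, and the brightest one is marked as shared between transcripts.

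The 3 measured transcription factors hardly differed between the diets, with ratios between 0.984 and 1.04 and a median log2 ratio of 0.01. IRF7, the factor that drives interferon transcription in birds, had a signal of 1510 on paddy rice and 1535 on corn, a ratio of 0.984. IRF1, an activator of genes induced by interferon gamma, had a signal of 4962 on paddy rice and 4790 on corn, a ratio of 1.04. IRF8, a factor of myeloid and B cells, had a signal of 1910 on paddy rice and 1898 on corn, a ratio of 1.01. Each was read by 1 bright probe set, and each log2 ratio was within the 0.16 SD between probe sets of a gene.

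**Figure D2:**
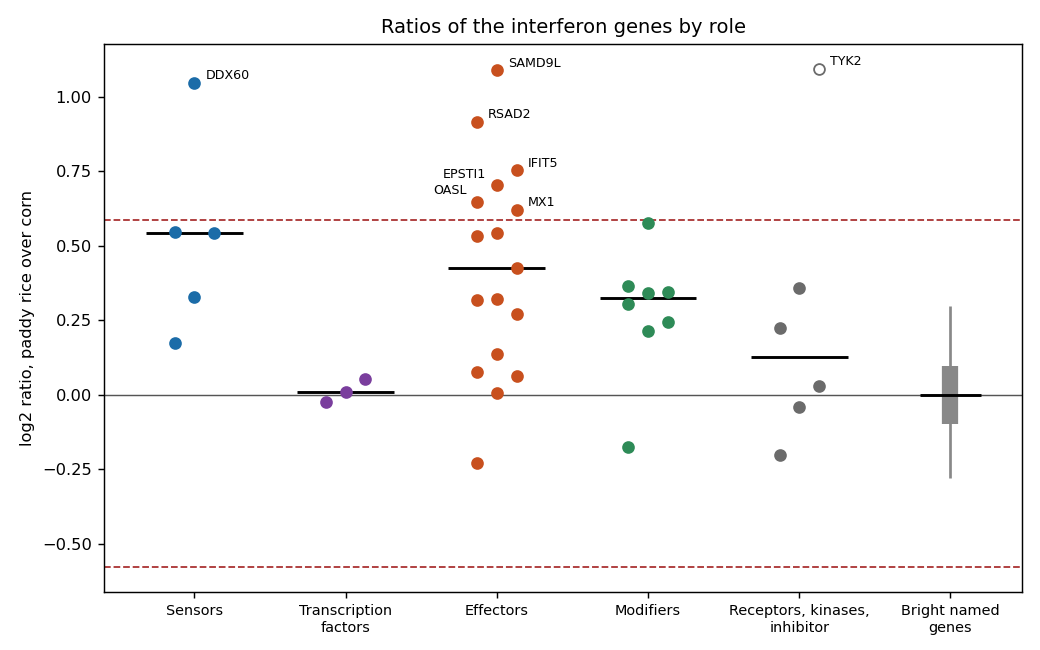
Log2 ratio of paddy rice over corn for each interferon gene by role, with black bars at the medians and dashed lines at ratios of 1.5 and 0.67. The last column shows the 5784 bright named genes, with a thick bar for the 25th to 75th percentile and a thin line for the 5th to 95th percentile (-0.28 to 0.30). Open symbols are below background on both arrays. All 5 sensors lie above 0, while the 3 transcription factors lie at 0.05 or lower.

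Among the 17 effectors, 16 had a ratio above 1 and 6 were above 1.5, with a median log2 ratio of 0.43. Of all named genes 49.5% were above 1 and 8.28% above 1.5, and of those with medium or high signal 1.88% were above 1.5. SAMD9L, which restricts poxviruses and slows translation, had a signal of 573 on paddy rice and 269 on corn, a ratio of 2.13. RSAD2 (viperin), which makes a chain-terminating nucleotide, had a signal of 400 on paddy rice and 212 on corn, a ratio of 1.89. IFIT5, which binds viral RNA ends and is the IFIT gene of the chicken, had a signal of 3260 on paddy rice and 1935 on corn, a ratio of 1.68. For these genes the signal on paddy rice exceeded that on corn by more than any transcription factor or receptor above background did. EPSTI1, an interferon-induced gene first described in the stroma of breast tumours, had a signal of 2033 on paddy rice and 1248 on corn, a ratio of 1.63. OASL, the 2'-5' oligoadenylate synthetase-like gene of the chicken, had a signal of 5850 on paddy rice and 3734 on corn, a ratio of 1.57. MX1, a GTPase that traps viral nucleoproteins, had a signal of 5108 on paddy rice and 3321 on corn, a ratio of 1.54. OASL and MX1 lay close to the threshold of 1.5, and each was read by 1 probe set.

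Among the brightest interferon genes, IFI6, LY6E and IFI27L2 had ratios between 1.34 and 1.46, under the threshold, while IFITM3 was at 1.04. IFI6, a small membrane protein gene, had a signal of 27375 on paddy rice and 18787 on corn, a ratio of 1.46. LY6E, a membrane protein gene that restricts coronavirus entry in mammals, had a signal of 11877 on paddy rice and 8209 on corn, a ratio of 1.45. IFI27L2, a relative of IFI6, had a signal of 20110 on paddy rice and 14960 on corn, a ratio of 1.34. IFI6 and LY6E each had a probe set that is not marked as shared, while that of IFI27L2 is marked so. Among 3 further effectors the ratios were between 1.21 and 1.25. EIF2AK2 (PKR), the kinase that halts translation on sensing viral RNA, had a signal of 1231 on paddy rice and 986 on corn, a ratio of 1.25. CMPK2, a nucleotide kinase whose gene lies next to RSAD2 in the RefSeq gene order, had a signal of 969 on paddy rice and 777 on corn, a ratio of 1.25. These neighbours thus differed in size of ratio, at 1.89 for RSAD2 and 1.25 for CMPK2. CCL19, a chemokine that draws lymphocytes and dendritic cells, had a signal of 1352 on paddy rice and 1120 on corn, a ratio of 1.21.

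The other 5 effectors had ratios near or below 1. ADAR, the enzyme that edits adenosine in RNA, had a signal of 723 on paddy rice and 657 on corn, a ratio of 1.10. ZC3HAV1 (ZAP), which binds CpG-rich viral RNA, had a signal of 1666 on paddy rice and 1661 on corn, a ratio of 1.00, with 0.963 and 1.07 on its other probe sets. The IFITM genes encode small membrane proteins, and IFITM3 blocks the fusion of viruses with endosomes while IFITM5 is known for its part in bone. IFITM3, found under the RefSeq symbol LOC770612, had a signal of 11867 on paddy rice and 11371 on corn, a ratio of 1.04. IFITM5 had a signal of 325 on paddy rice and 308 on corn, a ratio of 1.05. HELZ2, a nuclear helicase, had a signal of 52.1 on paddy rice and 61.1 on corn, a ratio of 0.853, and all 3 of its probe sets were dim. Its value is thus close to the level of 45.1 on paddy rice and 44.1 on corn that was taken as background.

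Of the 8 measured modifying enzymes and their partners, 7 had a ratio above 1, none was past a threshold, and the median log2 ratio was 0.32. Of all named genes 49.5% were above 1, 8.28% above 1.5 and 8.64% below 0.67. RNF213, a giant ubiquitin ligase, had a signal of 294 on paddy rice and 197 on corn, a ratio of 1.49. Its 4 dimmer probe sets were at 54.0 or lower on both arrays and had ratios between 0.132 and 0.769, so they went the opposite way close to background. Several genes of ADP-ribosylation were alike in their ratios. PARP14 had a signal of 3979 on paddy rice and 3087 on corn, a ratio of 1.29. PARP9 had a signal of 1623 on paddy rice and 1282 on corn, a ratio of 1.27. DTX3L, the ubiquitin ligase that pairs with PARP9 and is its neighbour in the RefSeq gene order, had a signal of 2249 on paddy rice and 1900 on corn, a ratio of 1.18. The second probe set of DTX3L disagreed in direction, with a signal of 404 on paddy rice and 449 on corn. PARP12, which restrains viral translation, had a signal of 1369 on paddy rice and 1108 on corn, a ratio of 1.24, and its second bright probe set had a ratio of 1.15. IFI35, which forms a complex with NMI, had a signal of 3097 on paddy rice and 2439 on corn, a ratio of 1.27. TRIM25, a ubiquitin ligase that activates RNA sensors in mammals, had a signal of 4994 on paddy rice and 4308 on corn, a ratio of 1.16. Its other 3 probe sets had ratios between 0.842 and 1.01 at much lower signals. UBA7, which activates the ubiquitin-like modifier ISG15 in mammals, was the exception, with a signal of 541 on paddy rice and 612 on corn, a ratio of 0.885. Over all 3 of its probe sets the ratio ran between 0.740 and 1.202, and none was past a threshold.

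The interferon receptors and their kinases had ratios on both sides of 1. IFNAR1, a chain of the receptor for type I interferons, had a signal of 1008 on paddy rice and 863 on corn, a ratio of 1.17, while its second probe set had a ratio of 1.01. IFNAR2, the partner chain, had a signal of 3711 on paddy rice and 3635 on corn, a ratio of 1.02, and its other probe sets were at 1.06 and 1.13. IFNGR1, a chain of the receptor for interferon gamma, had a signal of 77.2 on paddy rice and 79.4 on corn, a ratio of 0.973. IFNAR1 and IFNAR2 were thus within or little beyond the spread between probe sets of a gene. The signal of IFNGR1 was below those over which that spread was taken. JAK1, a kinase bound to IFNAR2 and IFNGR1, had a signal of 1472 on paddy rice and 1695 on corn, a ratio of 0.868, and its other probe sets were at 1.05 and 0.710. TYK2, the kinase bound to IFNAR1, had a signal of 17.6 on paddy rice and 8.23 on corn, and both are below background. The ratio of 2.13 for TYK2 is the eighth of those counted above 1.5, and is not read as a difference. SOCS1, an inhibitor that interferon itself induces, had a signal of 575 on paddy rice and 448 on corn, a ratio of 1.28. Without TYK2, the median log2 ratio of the receptors, kinases and SOCS1 was 0.03, and SOCS1 was the only one of the 5 above 1.2.

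**Figure D3:**
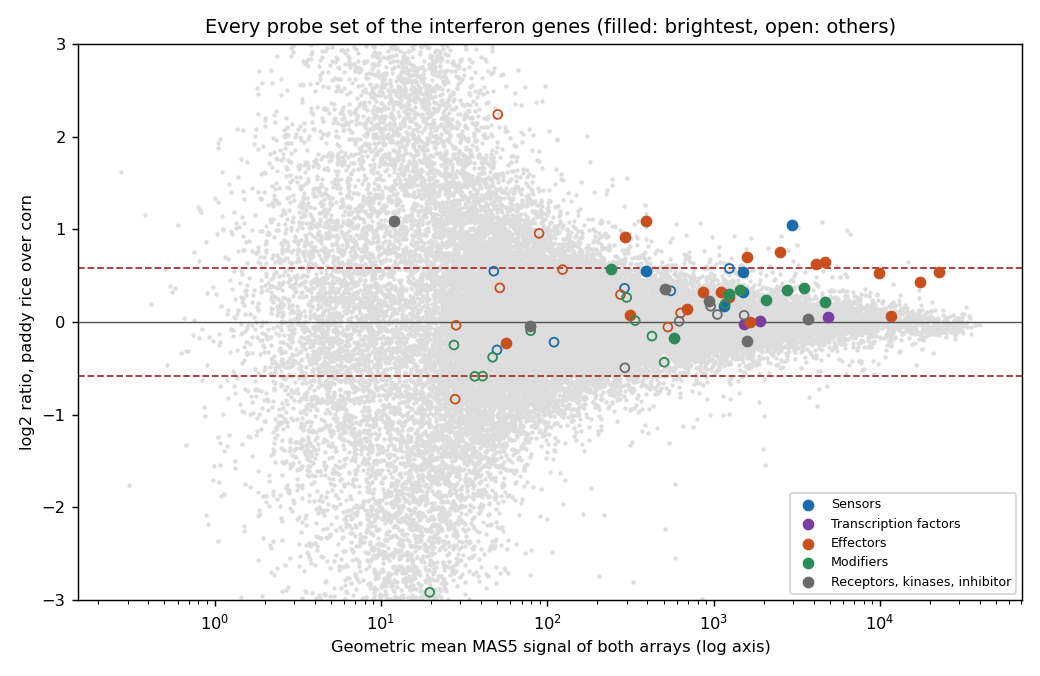
Log2 ratio of paddy rice over corn against the geometric mean signal of both arrays (log axis) for all chicken probe sets (grey) and for the interferon genes by role (filled for the brightest probe set of a gene, open for its others). Of the 72 probe sets 2 lie outside the plotted range. The grey cloud widens towards low signals. The filled points above the dashed line at 1.5 lie on its upper edge at medium and high signals, except TYK2, which lies at a low signal.

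Several probe sets of medium or high signal were available for 13 of the 39 genes. All of them lay above 1 for 9 genes, and they fell on both sides of 1 for 4, which were ZC3HAV1, UBA7, DTX3L and JAK1. Of the 8 genes above 1.5 only DDX60 and IFIT5 were among the 9. The share of all 4020 named genes with several such probe sets for which all lay above 1 was not counted. Probe sets of a gene were read on the same 2 arrays, so their agreement is no replicate. The second probe set of DDX60 had a signal of 1519 on paddy rice and 1017 on corn, a ratio of 1.49. The second probe set of IFIT5 had a signal of 305 on paddy rice and 249 on corn, a ratio of 1.23. The direction was thus shared in both genes, while the size of the difference was not. For IFIH1 the second probe set had a signal of 621 on paddy rice and 492 on corn, a ratio of 1.26. LY6E was read alike by its 2 brighter probe sets, at ratios of 1.45 and 1.48. Another 21 of the 39 genes, among them MX1, RSAD2, OASL, EPSTI1, DHX58 and IFI6, had 1 probe set and no such check.

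Other genes of the pathway, taken from lists by role, were centred close to a ratio of 1. Of 66 measured genes 35 had a ratio above 1, against 49.5% of all named genes, and the median log2 ratio of the 66 was 0.01. Of the 57 with medium or high signal 2 were above 1.5 and 0 below 0.67, against 1.88% and 1.72% of 9254 such named genes. STING1, the adaptor of cytosolic DNA sensing, had a signal of 368 on paddy rice and 232 on corn, a ratio of 1.58. The entry IRF10, which matched only as a synonym of a gene with the symbol IRF9 and may be another gene, had a signal of 254 on paddy rice and 163 on corn, a ratio of 1.56. Neither gene was bright, and each had 1 probe set. Of the 17 measured genes in the list of further interferon-induced genes, 11 had a ratio above 1, 4 were above 1.2, 0 were above 1.5 and 2 were below 0.67 (GBP1 and PNPT1, both below background on both arrays), with a median log2 ratio of 0.03. The following genes of the pathway lists were chosen after their values were seen. MOV10, a helicase that restrains retroelements, was at a ratio of 1.31, and TRANK1, also interferon-induced, was at 1.28. Of 9 further interferon regulatory factors and STATs 4 were above 1 and 5 below, with ETV7 at 1.37 and IRF4 at 0.739. Of 13 further receptors, kinases and inhibitors 7 were above 1 and 6 below, with JAK2 at 1.35 and JAK3 at 0.718. TAP2, a chain of the peptide transporter that loads MHC class I, had a signal of 4822 on paddy rice and 3668 on corn, a ratio of 1.31. TAP1, its partner chain and neighbour, had a signal of 693 on paddy rice and 771 on corn, a ratio of 0.899, and B2M, the light chain of MHC class I, had a ratio of 1.01. The receptor chains IFNGR2 and IL10RB, whose genes lie in 1 cluster with IFNAR1 and IFNAR2 in the RefSeq gene order, had ratios of 0.984 and 0.920.

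Of the 8 listed symbols of genes that encode interferons, IFNA3, IFNB1, IFNK and IFNE were not found in the annotation used, and those found stood for 3 genes. The type III interferon gene IFNL3A had a signal of 119 on paddy rice and 141 on corn, a ratio of 0.842, with 1 probe set of medium signal. IFNG had a signal of 26.4 on paddy rice and 50.9 on corn, and only the signal on corn was above background. IFNW1, a type I interferon gene, was below background on both arrays, at 3.59 on paddy rice and 2.10 on corn. The ratios of IFNG and IFNW1 are therefore not read as differences.

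**Figure D4:**
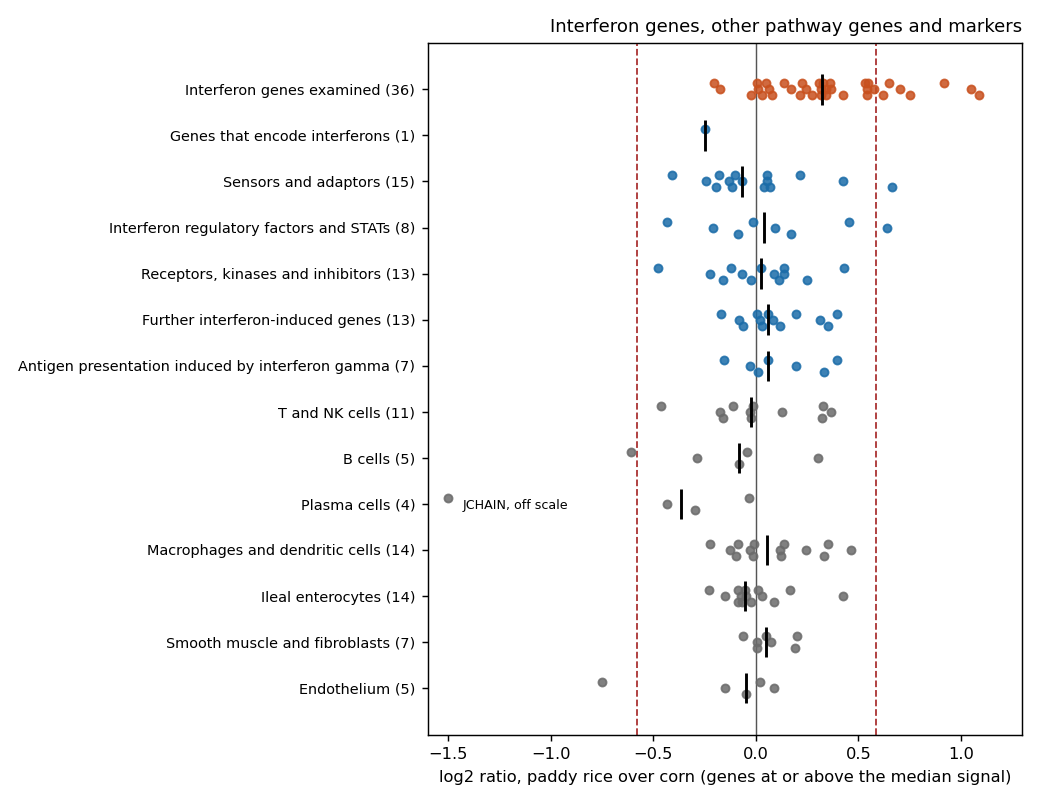
Log2 ratio of paddy rice over corn for genes of medium or high signal in each list that had any (heterophil genes had none), with the number of genes in parentheses, black bars at the medians and dashed lines at 1.5 and 0.67. The 36 interferon genes in orange have a median of 0.32, and the medians of the other lists in blue (pathway) and grey (cell type markers) lie at 0.06 or lower.

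The ileal label was borne out by its markers, since all 14 enterocyte genes had medium or high signals, and FABP6, the ileal bile acid binding protein gene, had a signal of 35027 on paddy rice and 31195 on corn. Leukocytes express many interferon-induced genes, so markers of these cells were set beside them. Of all named genes 8.28% were above 1.5 and 8.64% below 0.67, and at medium or high signal 1.88% and 1.72%. A short list with none past a threshold thus says little. Of 16 genes of T and NK cells none was past a threshold, the median log2 ratio was -0.02, and the summed signal was 21843 on paddy rice and 20256 on corn. Of the 16, 10 were below 1 and 4 above 1.2 (CCR7 at 1.48 but below background on both arrays, CD4 at 1.29, and ICOS and GZMA at 1.25), against 18.6% of all named genes. LCK, a kinase of T cells, was below background on both arrays, while CD3E had a ratio of 0.984 and GZMA, a granzyme of cytotoxic cells, a ratio of 1.25. GZMA alone had a signal of 9747 on paddy rice and 7788 on corn. That difference is larger than the one between the sums, so the sums say little about the other T and NK cell genes. Of 15 genes of macrophages and dendritic cells none was past a threshold, the median log2 ratio was -0.01, and the summed signal was 20066 on paddy rice and 18814 on corn. Over the 14 of medium or high signal the median was 0.05. Of the 15, 8 were below 1 and 3 above 1.2 (MARCO at 1.38, C1QC at 1.27 and XCR1 at 1.26), against 18.6% of all named genes above 1.2. Of 10 B cell genes 3 were below 0.67, against 8.64% of all named genes. IKZF3 alone of these 3 had a medium or high signal, CD79B lay just under the threshold at 0.667, and CXCR5 was below background on both arrays. The summed signal of the B cell genes was 3082 on paddy rice and 3347 on corn. Most of that sum came from the entry BLNK, which matched only as a synonym of SH2D6 and may be another gene, and without it the sum was 1125 on paddy rice and 1331 on corn. The lists of T and NK cells, of macrophages and dendritic cells and of enterocytes held 1 synonym match each (CD8B, MRC1L-B and KRT20). Of 5 plasma cell genes JCHAIN alone was past a threshold, with a signal of 303 on paddy rice and 2404 on corn, a ratio of 0.126. Of 5 endothelial genes PECAM1 alone was past a threshold, with a ratio of 0.595. The part of these cells in the ratios of the interferon genes was not tested.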

How the data were processed

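Ileal RNA of 3 birds per diet was pooled for 1 GeneChip Chicken Genome Array each. The authors derived the signals with MAS5, using the array maker's software, and scaled each array. What they deposited is 1 linear intensity per probe set, with neither detection calls nor a filter on low signals. Of 38535 probe sets 37693 were chicken. Of these 27166 had 1 gene in the platform annotation, and 26851 were found by Entrez identifier in the RefSeq gene table (assembly GRCg7b), which gave current symbols, synonyms and gene order. The level of background was the 95th percentile of 689 probe sets not marked as chicken, controls or reporters (45.1 on paddy rice, 44.1 on corn).

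Genes were matched by their current symbol, else by the platform's, else by a synonym, and the members and lists were chosen with earlier results of these data known. Both signals were given for members past a threshold, for transcription factors, receptors and kinases, and for members with probe sets on both sides of 1, and the other members were added for completeness. No test was possible, and the number of arrays limits the precision. The thresholds of 1.5 and 0.67 follow the methods. Alternatives were restriction to signals of at least 111 or of at least 522, median centring, quantile normalization, an offset of 34.5 (the 25th percentile), omission of shared probe sets, the median or the mean over probe sets, and thresholds of 2 and 0.5. A threshold of 1.2, a restriction to members above background and marker sums without synonym matches were added after seeing the data. Calls were tested on simulated data, with known ratios put on bright genes at an assumed noise. That checked the calculation only, as it held no differences between birds. Python 3.11.15, numpy 2.4.6, pandas 2.3.3 and matplotlib 3.10.9 were used.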

Additional observations from a re-analysis of the deposited data

Results flagged for a closer look

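The report's comparisons used the brightest probe set of each gene, and the 3 probe sets below lay outside them, with a signal on paddy rice more than 1.5 times that on the corn array, which serves as the control. The second probe set of SAMD9L had a signal of 124 on paddy rice and 64.0 on corn, a ratio of 1.94, near the 2.13 of its brightest one. The fourth probe set of LY6E by geometric mean signal had 110 on paddy rice and 23.2 on corn, a ratio of 4.72, where the signal on corn is below background. Of the 689 probe sets not marked as chicken, 3 had a mean signal at or above the median of chicken probe sets, and 1 of these 3 had a signal of 181 on paddy rice and 120 on corn, a ratio of 1.505 that lies just above the threshold. The other 2 had ratios of 0.797 and 0.857, and the former was far above background, with a signal of 8676 on paddy rice and 10883 on corn. The annotation used here names no gene for these 3.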

How the results depend on the processing

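No paired analysis was possible because there is 1 array per diet. The median log2 ratio of the interferon genes ran from 0.31 to 0.33 over 9 alternatives, and that of the transcription factors ran from 0.0048 to 0.0095. The count above 1.5, 8 with the settings of the report, was 5 over bright genes, where RSAD2, SAMD9L and TYK2 drop out. At a threshold of 2 the count was 3, namely DDX60, SAMD9L and TYK2, of which TYK2 is below background on both arrays. With the median of all probe sets of a gene, 1 gene was below 0.67 (RNF213, at 0.667), and the median log2 ratio of the modifying enzymes was 0.12, with DTX3L at 1.03 and PARP12 at 1.15 as the middle values. In that setting DDX60 was at 1.49 and IFIT5 at 1.44, so both were under 1.5. TLR3 was at 0.860 without shared probe sets, against 1.13 with them. IFI27L2 was at 20.7 without shared probe sets, on a probe set below background on both arrays. With the offset of 34.5, TYK2 was at 1.22. None of the 8 genes above 1.5 was below 1 in those of the 6 alternatives for single genes that gave it a value (OASL had none without shared probe sets, and TYK2 none with the mean over probe sets of medium or high signal). That is a weak check. MX1, RSAD2, OASL, EPSTI1 and TYK2 had 1 probe set each, so settings that select or combine probe sets could only keep or drop their values. The arrays were already scaled alike, so median centring could hardly move any ratio. Signals near background limit HELZ2, IFNGR1 and TYK2.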
